A study of Mus musculus with 16 samples.

Results

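The genes described here are 45 genes of the cell cycle and of DNA replication. They were taken as a list of names, and each was measured by the probe sets whose only gene symbol in the platform's table is that name. In all 43 of the 45 genes were measured, by 82 probe sets, out of 17097 genes and 45141 probe sets on the array. The mitotic cyclin Ccnb1 and the kinetochore protein Nuf2 were the sole name of no probe set, so their expression is not analysed here, and they enter only the promoter counts.

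The cells came from colons of C57BL/6 mice of the genotype Gli1CreERT2-ZsGreen, in which Gli1 drives a tamoxifen-activated Cre that turns on the green reporter ZsGreen. Each mouse received 1 mg of tamoxifen into the peritoneum on 5 days in a row, and its colon was taken on day 6, which the labels also describe as 5 days after tamoxifen. Cells in the gate Epcam- CD45- CD31- gp38+ were split 4 ways by Sca1, a surface protein, and ZsGreen, with 1 array per population from each of 4 mice. Among Sca1+ cells the reporter was high, dim or absent, and the fourth population lacked both Sca1 and reporter. All carry the same genotype and treatment, and there is no untreated group. They are called reporter-high, reporter-dim, Sca1+ negative and Sca1- negative below. ZsGreen reports past Cre activity under tamoxifen and not the Gli1 level of a cell when it was sorted.

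To divide, a cell passes from growth (G1) through DNA synthesis (S) and a second gap (G2) into mitosis, driven by cyclins and the kinases they switch on. D-type and E-type cyclins open S phase by releasing E2F transcription factors from the retinoblastoma family, while A-type and B-type cyclins with Cdk1 bring on mitosis. Genes of S phase and genes of mitosis are switched on in different waves, and most of them are low in resting cells such as the majority of stromal cells in the adult gut.

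Values are signals, on a linear scale that still holds the array's background. Array medians lay between 661 and 686, and the highest of 23 nonspecific control probe sets of each array, used here as its background, between 234 and 488. Differences are log2 differences ± SE between means of 4 arrays, from limma over all 17097 genes, and a gene rose or fell where the Benjamini-Hochberg adjusted p was under 0.05. The number of arrays limits the precision. Levels are compared only within a probe set, never between genes. The labels give the 4 populations of a mouse as sorted from the same animal, but the 4 arrays labelled mouse 2 did not match: Xist was 487 and 424 in its reporter-high and reporter-dim arrays and 18116 and 19209 in its Sca1+ and Sca1- negative arrays. The Y-linked gene Eif2s3y went the other way, at 3111 and 3095 against 146 and 197. The arrays labelled mouse 2 thus come from at least 2 animals, while those of mice 1, 3 and 4 matched one another, and the counts of genes that rose or fell are also given without mouse 2.

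The gate was checked by its genes. Gli1 was at 2611 ± 321 (SD, n = 4) in the brightest cells, 2323 ± 322 in dim ones, 1104 ± 299 in Sca1+ negative and 920 ± 318 in Sca1- negative ones. Pdpn, which encodes the gate protein gp38, was at 7494 ± 1153, 6523 ± 759, 3833 ± 1125 and 2196 ± 1122 in the same order. Epcam, an epithelial protein that the gate is meant to leave out, was at 3472 ± 2370, 10281 ± 3827, 17884 ± 3522 and 17339 ± 5049. Pecam1 (CD31), of endothelium, was at 969 ± 148, 2180 ± 962, 4064 ± 890 and 4149 ± 2048, and Ptprc (CD45), of leukocytes, at 468 ± 150, 487 ± 172, 635 ± 234 and 900 ± 212. Epcam and Pecam1 signals were above array background on all 16 arrays, although the gate is labelled negative for both proteins.

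The first comparison asks how the brightest reporter cells differ from Sca1+ cells without reporter. Of the 43 measured cell cycle genes 28 fell in reporter-high cells and 0 rose, beside 13.9% of all genes that fell, 17% that rose and 30.9% that changed in either direction. Their median difference was -0.65, against 0.00 over all genes, and 39 of 43 lay below 0. In 29 members every reporter-high array was below every Sca1+ negative array, beside 14.9% of all genes, and over mice 1, 3 and 4 this held in 31 (17.4%). A moderated F test over the 4 populations called 24 of the 43, beside 32.3% of all genes. Without mouse 2 it called 6 members, for which the share of all genes was not counted. In sorted bulk samples fewer dividing cells and less RNA per cell cannot be told apart. Without mouse 2, 13 members fell (7.89% of all genes), all of them among the 28, and all 28 stayed below 0. The 13 were Mki67, Ccna2, Ccnb2, Ccne1, Cdk1, Mcm6, Aurkb, Plk1, Ube2c, Tyms, Kif23, Cenpe and Nusap1. Without mouse 4, 18 fell (9.04% of all genes). In the same comparison all 17 epithelial markers measured fell, with a median of -2.24, and with their mean level as a covariate 0 of 43 members passed. That fit left little to call, with 0.00585% of all genes passing as higher. Epithelial levels of the 2 groups did not overlap, so it cannot tell the covariate from the population, as set out with the markers below.

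**Figure D1:**
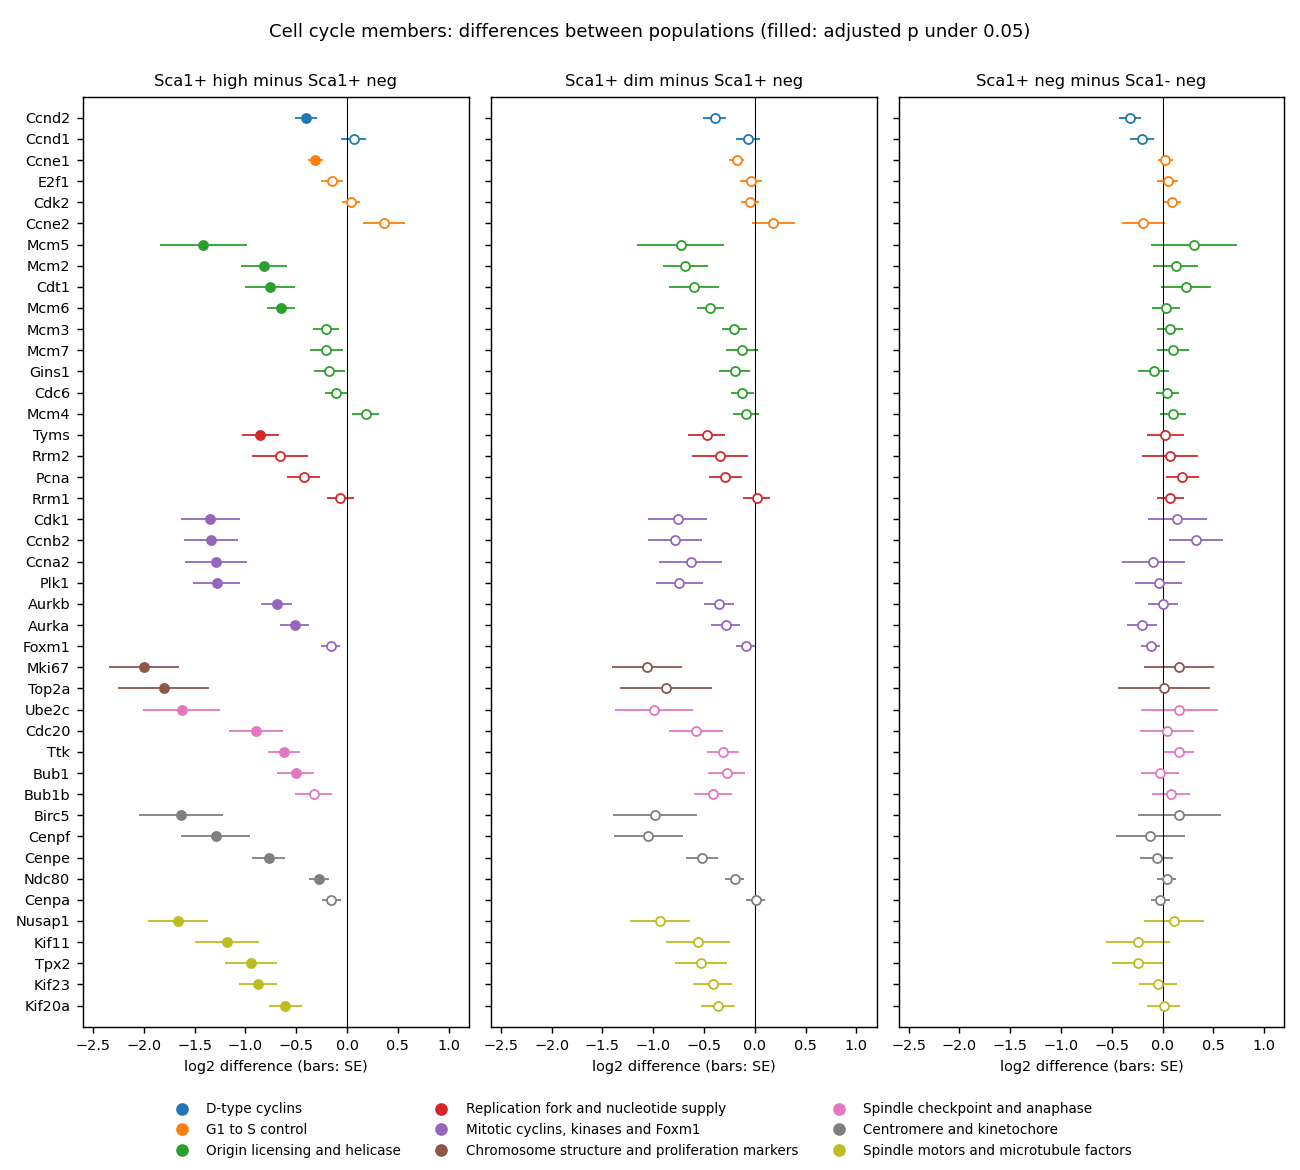
Log2 differences (horizontal axes, bars are SE, n = 4 arrays per population) of the 43 measured genes, coloured by role, for reporter-high minus Sca1+ negative, reporter-dim minus Sca1+ negative and Sca1+ negative minus Sca1- negative cells. Filled points passed the threshold: 28 in the left panel, all below 0, and 0 in the others, and with arrays scaled to the hybridization controls Ccne1 and Ndc80 among the 28 came to lie above 0.

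More genes of mitosis than of S phase fell. Of 19 genes of the D cyclins, S phase entry, licensing and replication 7 fell, and of 24 genes of mitosis 21 did. By role, 1 of 2 D-type cyclins, 1 of 4 genes of the G1 to S step, 4 of 9 licensing and helicase genes and 1 of 4 fork and nucleotide genes fell. So did 6 of 7 mitotic cyclins, kinases and Foxm1, 2 of 2 chromosome genes, 4 of 5 checkpoint and anaphase genes, 4 of 5 centromere genes and 5 of 5 spindle genes. The medians by role were -0.17, -0.05, -0.20 and -0.54 for the first set and -1.28, -1.90, -0.62, -0.77 and -0.94 for the second. Without mouse 2 the numbers that fell were, in the same order of roles, 0, 1, 1 and 1, then 5, 1, 1, 1 and 2. Whether the classes differ was not tested. Overlap of groups, in the accounts of single genes that follow, is between reporter-high and Sca1+ negative arrays.

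D-type cyclins bind Cdk4 and Cdk6 and carry growth signals into the cycle. Ccnd2 read 8841, 6902, 7810 and 7236 in the reporter-high arrays of mice 1 to 4, 7584, 7459, 8199 and 7680 in reporter-dim, 8441, 10072, 12998 and 9634 in Sca1+ negative and 12838, 11974, 13649 and 12309 in Sca1- negative arrays. Reporter-high and reporter-dim arrays were low and overlapped, the Sca1- negative group had the highest mean, and the Sca1+ negative array of mouse 1 overlapped the reporter-high group. The difference was -0.41 ± 0.11, adjusted p = 0.0114 for reporter-high and -0.39 ± 0.11, adjusted p = 0.0793 for reporter-dim cells, both against Sca1+ negative cells. Ccnd1 showed no such order, with 4545, 5012, 3814 and 3656 in the reporter-high arrays of mice 1 to 4, 3640, 3947, 3902 and 3959 in reporter-dim, 4772, 3919, 4240 and 3351 in Sca1+ negative and 5435, 4589, 4553 and 4095 in Sca1- negative arrays. Its groups overlapped and its difference was 0.06 ± 0.12, adjusted p = 0.739.

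Entry into S phase uses the E-type cyclins, their kinase Cdk2 and the transcription factor E2f1. Ccne1 read 722, 751, 780 and 771 in the reporter-high arrays of mice 1 to 4, 891, 806, 812 and 815 in reporter-dim, 915, 1000, 919 and 925 in Sca1+ negative and 837, 1075, 898 and 896 in Sca1- negative arrays. Every reporter-high array was the lowest of its mouse and the group lay below the Sca1+ negative one without overlap. The fall was small, -0.31 ± 0.07, adjusted p = 0.0047. Scaling to the hybridization controls adds 0.38 to every gene in this comparison, which puts Ccne1 at 0.068. Ccne2 stood on the other side of 0 with wide spread, at 1184, 1400, 956 and 1319 in the reporter-high arrays of mice 1 to 4, 1476, 1195, 712 and 1020 in reporter-dim, 1255, 1059, 671 and 863 in Sca1+ negative and 1081, 1003, 1095 and 1092 in Sca1- negative arrays. These groups overlapped (0.36 ± 0.21, adjusted p = 0.216). Cdk2 and E2f1 differed by 0.04 ± 0.09, adjusted p = 0.786 and -0.15 ± 0.11, adjusted p = 0.339.

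Licensing loads the hexameric helicase Mcm2 to Mcm7 onto origins with the help of Cdc6 and Cdt1, and Gins1 belongs to the complex that makes it active. Within the hexamer Mcm2, Mcm5 and Mcm6 fell and Mcm3, Mcm4 and Mcm7 did not pass the test. Mcm6 read 1082, 960, 926 and 827 in the reporter-high arrays of mice 1 to 4, 1079, 1238, 1020 and 1059 in reporter-dim, 1431, 1643, 1708 and 1205 in Sca1+ negative and 1144, 1667, 1679 and 1379 in Sca1- negative arrays. All reporter-high arrays lay below all Sca1+ negative arrays (-0.65 ± 0.13, adjusted p = 0.0022). Mcm2 read 1038, 984, 901 and 854 in the reporter-high arrays of mice 1 to 4, 825, 1095, 1198 and 1054 in reporter-dim, 1286, 1555, 2259 and 1681 in Sca1+ negative and 939, 2026, 2066 and 1355 in Sca1- negative arrays. Here too the groups did not overlap, and the reporter-dim array of mouse 1 was the lowest of all (-0.82 ± 0.22, adjusted p = 0.0115, and adjusted p = 0.0560 without mouse 2). Mcm5 and Cdt1 differed by -1.41 ± 0.42, adjusted p = 0.0195 and -0.76 ± 0.24, adjusted p = 0.0281, with adjusted p = 0.127 and 0.199 without mouse 2.

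The remaining licensing genes had values close together. Mcm7 read 1490, 1455, 1352 and 1268 in the reporter-high arrays of mice 1 to 4, 1371, 1183, 1894 and 1490 in reporter-dim, 1365, 1925, 1860 and 1334 in Sca1+ negative and 1184, 1641, 1757 and 1429 in Sca1- negative arrays, and its groups overlapped (-0.20 ± 0.16, adjusted p = 0.382). Cdc6 lay at or under the background of its array on 15 of 16 arrays, with 252, 240, 259 and 263 in the reporter-high arrays of mice 1 to 4, 251, 220, 256 and 278 in reporter-dim, 270, 245, 288 and 291 in Sca1+ negative and 223, 346, 256 and 246 in Sca1- negative arrays. Such values carry no order, and no fold is given. Mcm3, Mcm4 and Gins1 differed by -0.20 ± 0.13, 0.18 ± 0.13 and -0.17 ± 0.15, with adjusted p of 0.249, 0.326 and 0.448. A further probe set of Mcm3 fell (-0.48 ± 0.16, adjusted p = 0.0351), so the probe sets of this gene differ in their call.

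At the fork, Pcna is the sliding clamp of the DNA polymerases, Tyms makes thymidylate, and Rrm1 and Rrm2 form the enzyme that makes deoxynucleotides. Tyms read 1397, 1332, 1646 and 1394 in the reporter-high arrays of mice 1 to 4, 1873, 1546, 2278 and 1851 in reporter-dim, 2096, 3086, 2900 and 2417 in Sca1+ negative and 1684, 3289, 2934 and 2581 in Sca1- negative arrays. Reporter-high arrays were the lowest of each mouse and did not overlap with Sca1+ negative arrays (-0.85 ± 0.18, adjusted p = 0.00273). Pcna read 8237, 8905, 9451 and 10412 in the reporter-high arrays of mice 1 to 4, 8012, 9787, 11172 and 11980 in reporter-dim, 10455, 14201, 12404 and 12754 in Sca1+ negative and 7940, 14255, 11532 and 10455 in Sca1- negative arrays. Its reporter-high and Sca1+ negative groups did not overlap either, but the difference did not pass the test (-0.43 ± 0.16, adjusted p = 0.059). Rrm1 read 1632, 1713, 1637 and 1921 in the reporter-high arrays of mice 1 to 4, 1796, 1825, 1862 and 1824 in reporter-dim, 1540, 2290, 1758 and 1703 in Sca1+ negative and 1357, 2120, 1953 and 1524 in Sca1- negative arrays, with overlapping groups (-0.07 ± 0.14, adjusted p = 0.764). Its partner Rrm2 differed by -0.66 ± 0.27, adjusted p = 0.0829, and a further probe set of it fell (-0.70 ± 0.21, adjusted p = 0.0226).

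Mitotic entry is the work of Cdk1 with cyclins A2 and B, of the polo kinase Plk1 and of the aurora kinases, and Foxm1 is a transcription factor of their genes. Plk1 read 1447, 1103, 2251 and 1549 in the reporter-high arrays of mice 1 to 4, 1990, 1978, 2635 and 2394 in reporter-dim, 2688, 4553, 4332 and 3679 in Sca1+ negative and 2514, 4748, 4200 and 4324 in Sca1- negative arrays. The 4 reporter-high arrays lay below all Sca1+ negative arrays, and reporter-dim arrays lay between them in mean level (-1.28 ± 0.23, adjusted p = 0.000938). Aurkb, the kinase of the chromosomal passenger complex, read 303, 305, 448 and 384 in the reporter-high arrays of mice 1 to 4, 425, 440, 489 and 448 in reporter-dim, 528, 727, 611 and 464 in Sca1+ negative and 485, 695, 555 and 571 in Sca1- negative arrays. The groups did not overlap, although signals were low (-0.69 ± 0.15, adjusted p = 0.00293). Cdk1, Ccnb2 and Ccna2 fell by 1.35, 1.34 and 1.29 on the log2 scale (adjusted p = 0.00295, 0.00166 and 0.00539), and Aurka fell by 0.52 (adjusted p = 0.0131). Foxm1 itself did not pass (-0.16 ± 0.09, adjusted p = 0.232).

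Mki67, the gene of the proliferation marker Ki-67, had the largest fall of all members, and Top2a, the topoisomerase that untangles replicated DNA, came next. Mki67 read 702, 789, 1583 and 1175 in the reporter-high arrays of mice 1 to 4, 1550, 1479, 2696 and 2240 in reporter-dim, 2442, 6510, 4886 and 3384 in Sca1+ negative and 2083, 5373, 4342 and 3454 in Sca1- negative arrays. The highest reporter-high array, at 1583, lay below the lowest Sca1+ negative array, at 2442, with the array labelled mouse 2 the highest of that group (-2.00 ± 0.35, adjusted p = 0.00077). Top2a read 274, 489, 767 and 590 in the reporter-high arrays of mice 1 to 4, 601, 704, 1815 and 1041 in reporter-dim, 1025, 3205, 1928 and 1434 in Sca1+ negative and 805, 2839, 2296 and 1653 in Sca1- negative arrays. The groups did not overlap (-1.81 ± 0.45, adjusted p = 0.00707), and without mouse 2 the difference was -1.50 with adjusted p = 0.0689.

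**Figure D2:**
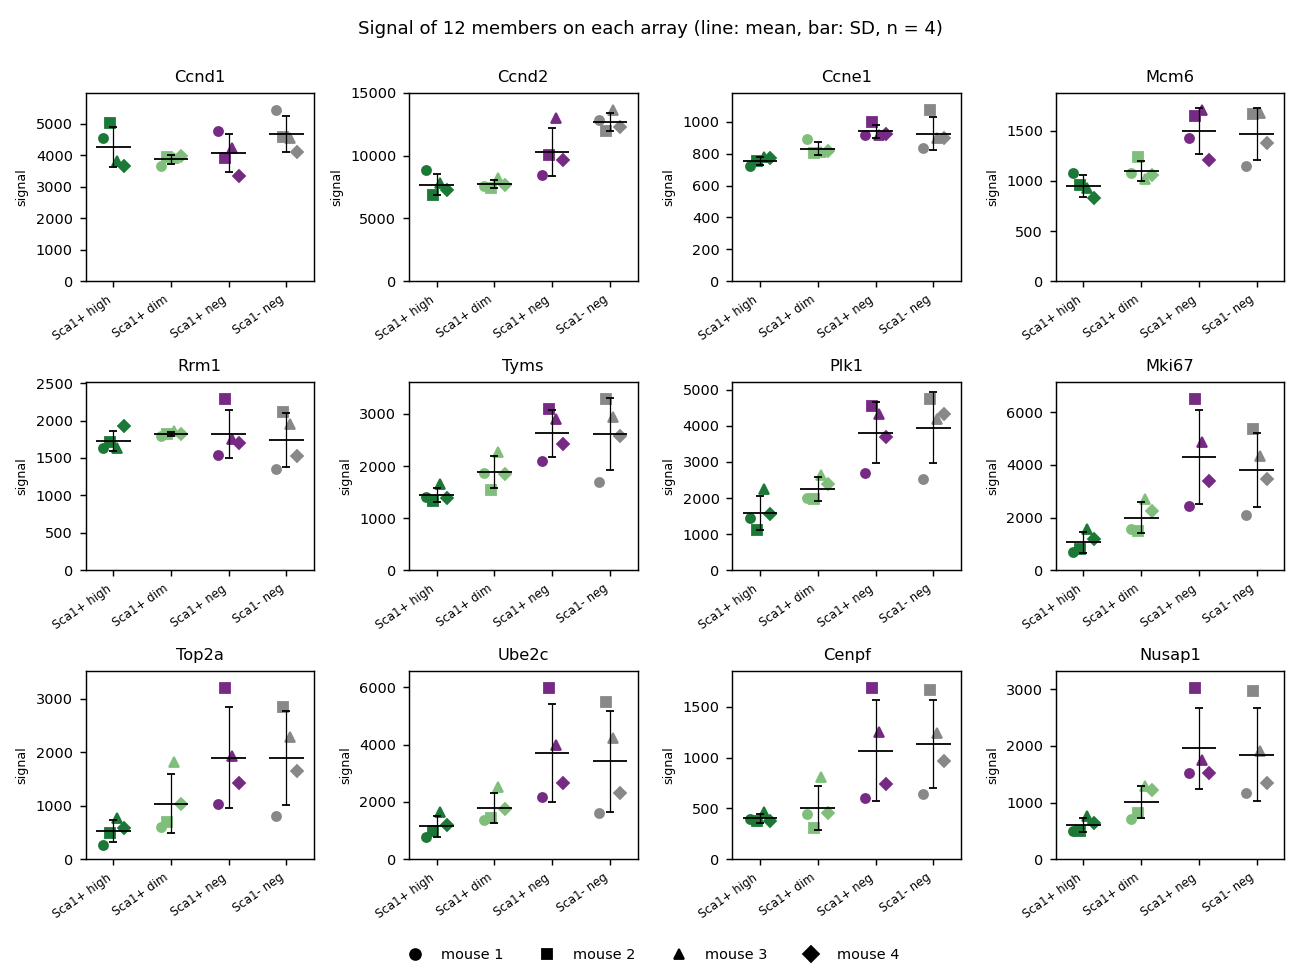
Signal (linear, vertical axis from 0) of 12 genes on each of the 16 arrays, with symbols for the mouse, a line at the mean and a bar of 1 SD (n = 4) for each population. In Mki67, Top2a, Plk1, Ube2c and Nusap1 reporter-high means lie lowest, reporter-dim means between and negative means highest, with single reporter-high arrays above reporter-dim ones, while Ccnd1 and Rrm1 overlap across populations.

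The spindle checkpoint holds anaphase until all chromosomes are attached, and Cdc20 and Ube2c then activate and serve the ubiquitin ligase that starts it. Ube2c read 786, 969, 1637 and 1211 in the reporter-high arrays of mice 1 to 4, 1378, 1447, 2536 and 1754 in reporter-dim, 2171, 5981, 4005 and 2664 in Sca1+ negative and 1626, 5487, 4235 and 2328 in Sca1- negative arrays. All reporter-high arrays were below all Sca1+ negative arrays (-1.63 ± 0.38, adjusted p = 0.00467). Ttk, the checkpoint kinase Mps1, read 349, 319, 408 and 404 in the reporter-high arrays of mice 1 to 4, 430, 487, 541 and 385 in reporter-dim, 454, 661, 607 and 567 in Sca1+ negative and 371, 572, 580 and 541 in Sca1- negative arrays. Its groups did not overlap (-0.62 ± 0.16, adjusted p = 0.00693). Cdc20 fell by 0.90 (adjusted p = 0.0183). The kinase gene Bub1 was at array background in all 4 Sca1+ negative and 3 reporter-high arrays, so its call (adjusted p = 0.0481) carries no fold. Bub1b did not pass (-0.33 ± 0.18, adjusted p = 0.204), while a further probe set of it fell (-0.41 ± 0.13, adjusted p = 0.0240).

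Centromere and kinetochore proteins tie chromosomes to the spindle. Cenpe, a kinetochore motor, read 481, 392, 527 and 442 in the reporter-high arrays of mice 1 to 4, 525, 521, 600 and 538 in reporter-dim, 581, 1027, 906 and 688 in Sca1+ negative and 668, 977, 872 and 767 in Sca1- negative arrays. Reporter-high and reporter-dim arrays were low and the negative groups high, with no overlap between reporter-high and Sca1+ negative arrays (-0.77 ± 0.16, adjusted p = 0.0023). Cenpf, a large kinetochore protein of G2 and mitosis, read 392, 376, 460 and 376 in the reporter-high arrays of mice 1 to 4, 446, 310, 807 and 454 in reporter-dim, 598, 1684, 1247 and 736 in Sca1+ negative and 642, 1665, 1241 and 969 in Sca1- negative arrays. The negative groups spread widely, yet their lowest arrays lay above the highest reporter-high array (-1.30 ± 0.34, adjusted p = 0.00991, and adjusted p = 0.0561 without mouse 2). Birc5 (survivin) fell (adjusted p = 0.00738), but with 3 of 4 reporter-high arrays at background its difference of -1.63 is not exact, and Ndc80 fell by 0.27 (adjusted p = 0.0436). Ndc80 came to 0.11 with arrays scaled to the hybridization controls. The centromeric histone Cenpa did not pass (-0.15 ± 0.09, adjusted p = 0.25), but a further probe set of it fell by 0.91 (adjusted p = 0.0107).

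All 5 spindle genes fell. Nusap1, which bundles spindle microtubules, read 499, 501, 756 and 646 in the reporter-high arrays of mice 1 to 4, 716, 812, 1299 and 1217 in reporter-dim, 1519, 3023, 1759 and 1520 in Sca1+ negative and 1160, 2976, 1905 and 1351 in Sca1- negative arrays. Reporter-high arrays lay far below Sca1+ negative ones, among which the array labelled mouse 2 stood highest (-1.66 ± 0.30, adjusted p = 0.000881). Kif23, a motor of cytokinesis, read 161, 177, 196 and 192 in the reporter-high arrays of mice 1 to 4, 190, 229, 365 and 244 in reporter-dim, 258, 396, 355 and 338 in Sca1+ negative and 265, 441, 359 and 328 in Sca1- negative arrays. Every reporter-high array and 3 of 4 Sca1+ negative arrays were at background, so its call carries no fold (adjusted p = 0.00277). The motors Kif11 and Kif20a fell by 1.18 and 0.61 (adjusted p = 0.0103 and 0.0117), and Tpx2, which activates Aurka at the spindle, fell by 0.94 (adjusted p = 0.0116). Over the whole list 40 of 82 probe sets fell and 0 rose, and no gene had probe sets called in opposite directions.

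Genes with several probe sets did not always give 1 answer. Of the 28 members that fell 16 had further probe sets, 26 in all, of which 9 fell and 17, in 11 genes, did not pass. Of these 17, 10 were at background on over 8 of 16 arrays, and 4 were at background on none: 1 each of Top2a (-0.08 ± 0.10, adjusted p = 0.617), Tyms (-0.19 ± 0.12, adjusted p = 0.287), Cenpf (-0.34 ± 0.15, adjusted p = 0.123) and Mcm2 (-0.35 ± 0.14, adjusted p = 0.0728). The falls of Top2a, Tyms, Cenpf and Mcm2 thus rest on some of their probe sets and not on others. In all 3 of the 17 were above 0, those of Nusap1 (0.04), Ttk (0.03) and Tyms (0.14), with Nusap1 and Tyms at background on all 16 arrays and Ttk on 8.

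Promoters of these genes carry known elements, and they are shown because they bear on the classes of genes described above. E2F factors bind sites such as TTTCCCGC and TTTGGCGC in S phase genes, whereas the CHR element TTTGAA, together with CCAAT boxes, marks genes of G2 and mitosis. The 4 words were searched on both strands in 300 bases (250 before and 50 after the start of each transcript) of the RefSeq promoter table, build GRCm38.p6, which holds 36 windows for 35 of the 45 genes. No E2F, CHR or CCAAT match overlapped a match of another kind. An E2F word stood in 7 of 15 windows (46.7%) of the genes of S phase entry, licensing and replication and in 0 of 21 of mitosis genes, against 1.56% of all 32851 windows. CHR stood in 1 of 15 and in 15 of 21 (71.4%), against 17.9% of all windows. CCAAT stood in 10 of 15 (66.7%) and in 17 of 21 (81.0%), against 37.4% of all windows, so it was frequent in both classes. CHR and CCAAT together stood in 14 of 21 mitosis windows (66.7%), against 6.95% of all. A match describes these letters and is not a bound site.

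Shown are 3 mitosis genes that fell, with CHR and CCAAT words in capitals, and below them 3 licensing genes with E2F and CCAAT words in capitals, of which Mcm6 fell and Mcm3 and Cdc6 did not pass the test. Plk1 lies at chr7:122159185-122159484, plus strand, Mki67 at chr7:135716330-135716629, minus strand, Cenpf at chr1:189688037-189688336, minus strand, Mcm6 at chr1:128359656-128359955, minus strand, Mcm3 at chr1:20820263-20820562, minus strand and Cdc6 at chr11:98907901-98908200, plus strand. Each is written 5′ to 3′ on its gene's strand.
Plk1: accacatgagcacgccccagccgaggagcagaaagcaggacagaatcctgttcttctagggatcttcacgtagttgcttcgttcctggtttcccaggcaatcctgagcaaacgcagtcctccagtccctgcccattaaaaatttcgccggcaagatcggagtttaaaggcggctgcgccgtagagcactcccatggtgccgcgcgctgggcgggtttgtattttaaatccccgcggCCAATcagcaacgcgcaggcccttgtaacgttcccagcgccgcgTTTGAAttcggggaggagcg
Mki67: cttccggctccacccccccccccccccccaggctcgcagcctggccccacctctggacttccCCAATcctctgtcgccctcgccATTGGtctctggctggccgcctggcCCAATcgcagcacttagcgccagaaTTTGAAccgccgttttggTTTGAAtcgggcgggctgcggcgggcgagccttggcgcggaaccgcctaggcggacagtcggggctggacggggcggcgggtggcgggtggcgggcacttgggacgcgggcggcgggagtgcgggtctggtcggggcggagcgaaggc
Cenpf: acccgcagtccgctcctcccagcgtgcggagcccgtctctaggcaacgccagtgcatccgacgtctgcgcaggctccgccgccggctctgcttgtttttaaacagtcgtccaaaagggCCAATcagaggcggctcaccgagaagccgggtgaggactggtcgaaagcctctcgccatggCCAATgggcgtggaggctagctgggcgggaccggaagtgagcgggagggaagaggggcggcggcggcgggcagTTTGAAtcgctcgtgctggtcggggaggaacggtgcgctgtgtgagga
Mcm6: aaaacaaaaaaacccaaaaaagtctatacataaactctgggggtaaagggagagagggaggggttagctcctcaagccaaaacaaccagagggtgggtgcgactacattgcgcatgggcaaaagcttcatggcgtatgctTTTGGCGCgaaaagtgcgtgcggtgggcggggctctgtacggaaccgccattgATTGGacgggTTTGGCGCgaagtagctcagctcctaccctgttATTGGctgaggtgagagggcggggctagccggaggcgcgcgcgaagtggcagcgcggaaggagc
Mcm3: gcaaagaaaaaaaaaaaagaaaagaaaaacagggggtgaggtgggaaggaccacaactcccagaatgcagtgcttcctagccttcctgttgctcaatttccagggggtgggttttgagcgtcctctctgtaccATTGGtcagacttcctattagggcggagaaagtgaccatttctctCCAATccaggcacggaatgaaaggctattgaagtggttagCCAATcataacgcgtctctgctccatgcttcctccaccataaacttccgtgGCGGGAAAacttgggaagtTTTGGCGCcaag
Cdc6: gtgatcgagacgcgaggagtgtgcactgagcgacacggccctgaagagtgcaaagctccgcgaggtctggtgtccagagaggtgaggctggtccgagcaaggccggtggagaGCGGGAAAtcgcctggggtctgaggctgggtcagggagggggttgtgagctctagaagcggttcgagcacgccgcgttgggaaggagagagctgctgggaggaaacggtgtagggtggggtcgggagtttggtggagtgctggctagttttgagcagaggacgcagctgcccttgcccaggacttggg

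Among the 23 windows of genes that fell, 14 (60.9%) held a CHR word and 3 (13.0%) an E2F word. Among 11 windows of measured genes that did not pass, 2 (18.2%) held CHR and 4 (36.4%) E2F. The 2 with CHR that did not pass are Bub1b and Cenpa, each of which has a further probe set that fell. So do Mcm3, whose window holds E2F, and Rrm2, whose window holds neither E2F nor CHR. In the other direction, Top2a, Cenpf, Kif23, Ttk and Mcm2 have CHR and fell, but each has a further probe set that did not pass. These shares follow the roles above and were not tested.

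Reporter-dim cells lay between the extremes in mean level for most members. For 36 of 43 members, and for all 28 that fell, the reporter-dim mean lay between those of reporter-high and Sca1+ negative cells (33 members without mouse 2). The 28 were picked by the gap between those outer means, which makes a mean between them likely, and the share of all genes was not counted. Against Sca1+ negative cells 0 of 43 members passed with limma, beside 1.51% of all genes, with 20 lower and 0 higher at an unadjusted p under 0.05. The median was -0.39, and 40 of 43 were below 0. With mouse as a block 15 members fell, beside 7.78% of all genes that fell in that fit, and with the arrays labelled mouse 2 counted as 2 animals 11 did (5.25%). Mki67, Cenpf, Plk1, Nusap1 and Ube2c were among both sets, with unblocked differences of -1.06 ± 0.35, -1.05 ± 0.34, -0.74 ± 0.23, -0.93 ± 0.30 and -0.99 ± 0.38. Without mouse 2 the count was 0 (0.0526% of all genes fell), with 6 lower and 0 higher at an unadjusted p under 0.05, and without mouse 1 it was 8 (3.39%).

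Between reporter-high and reporter-dim cells 0 of 43 passed (limma, 1.42% of all genes), with 6 lower and 0 higher at an unadjusted p under 0.05. The median was -0.23, and 36 of 43 lay below 0. Mki67 and Top2a differed most, by -0.94 ± 0.35, adjusted p = 0.178 and -0.93 ± 0.45, adjusted p = 0.317. The block gave 2 members that fell, Mki67 and Kif23 (4.67% of all genes fell), and 16 with the arrays of mouse 2 split (5.66%). Kif23 was at background on every array of both populations, so its call carries no fold. Without mouse 2, 0 of 17097 genes passed, with 8 members lower and 0 higher at an unadjusted p under 0.05. Mcm4 went the other way: each reporter-high array was above every reporter-dim array, at 2054, 2225, 2049 and 2514 against 1551, 1855, 1907 and 2026 (0.27 ± 0.13, adjusted p = 0.317). Of all genes 7.35% stood apart in that direction and 4.46% in the other, as did 3 members, Ccne1 and, named after their values were seen, Ccnb2 and Kif11. Over mice 1, 3 and 4, 1 member stood apart above and 6 below, and the share of all genes was not counted.

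No difference passed between the 2 reporter-negative populations. In Sca1+ against Sca1- negative cells 0 of 43 passed (limma, 2.45% of all genes), and 1, Ccnd2, was under 0.05 unadjusted (-0.32 ± 0.11, adjusted p = 0.193). Differences ran from -0.32 to 0.33 with a median of 0.04. In 0 of 43 members were the 4 arrays of each group apart (2.76% of all genes lower and 2.7% higher). Over mice 1, 3 and 4 the groups were apart in 2 members, and the share of all genes was not counted. For Mki67 the difference was 0.16 ± 0.35 and for Top2a 0.02 ± 0.45. Without mouse 2 the count was 0 as well, with 1 lower and 1 higher at an unadjusted p under 0.05.

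Against Sca1- negative cells the reporter-high pattern returned, with the same reporter-high arrays in both comparisons. Of 43 members 26 fell and 0 rose, beside 16.7% of all genes that fell and 35.9% that changed. The median was -0.62, and 25 members fell in both reporter-high comparisons and 29 in at least 1, beside 11.5% and 19.1% of all genes. Without mouse 2 these counts were 11 and 18 members, for which the share of all genes was not counted. Foxm1 fell here by its brightest probe set (-0.28 ± 0.09, adjusted p = 0.033). Its further probe sets did not pass (-0.18 ± 0.11, -0.59 ± 0.30 and -0.11 ± 0.06, adjusted p = 0.247, 0.157 and 0.160). Mcm5, Cdt1 and Ndc80, which fell against Sca1+ negative cells, did not pass. Ccnd2 had the smallest p of the list (-0.73 ± 0.11, adjusted p = 0.000159). Ccne1 differed by -0.29 ± 0.07, adjusted p = 0.00628 and was at 0.15 with arrays scaled to the hybridization controls, which adds 0.43 to every gene here. That shift is larger than the fall of Foxm1 as well. Without mouse 2, 16 fell (10.4% of all genes).

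Reporter-dim against Sca1- negative cells gave 5 members that fell, beside 5.89% of all genes that fell and 13.9% that changed. These were Ccnd2 (-0.71 ± 0.11, adjusted p = 0.000759), Cenpe (-0.58 ± 0.16, adjusted p = 0.0269), Aurka (-0.49 ± 0.14, adjusted p = 0.0346), Cenpf (-1.17 ± 0.34, adjusted p = 0.0348) and Plk1 (-0.78 ± 0.23, adjusted p = 0.0353). With the block 17 fell (11.3%), and 16 with mouse 2 split (9.35%). Leaving out mouse 1 gave 11 (8.43% of all genes), mouse 2 gave 1 (1.56%), mouse 3 gave 2 (4.13%) and mouse 4 gave 1 (1.75%).

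**Figure D3:**
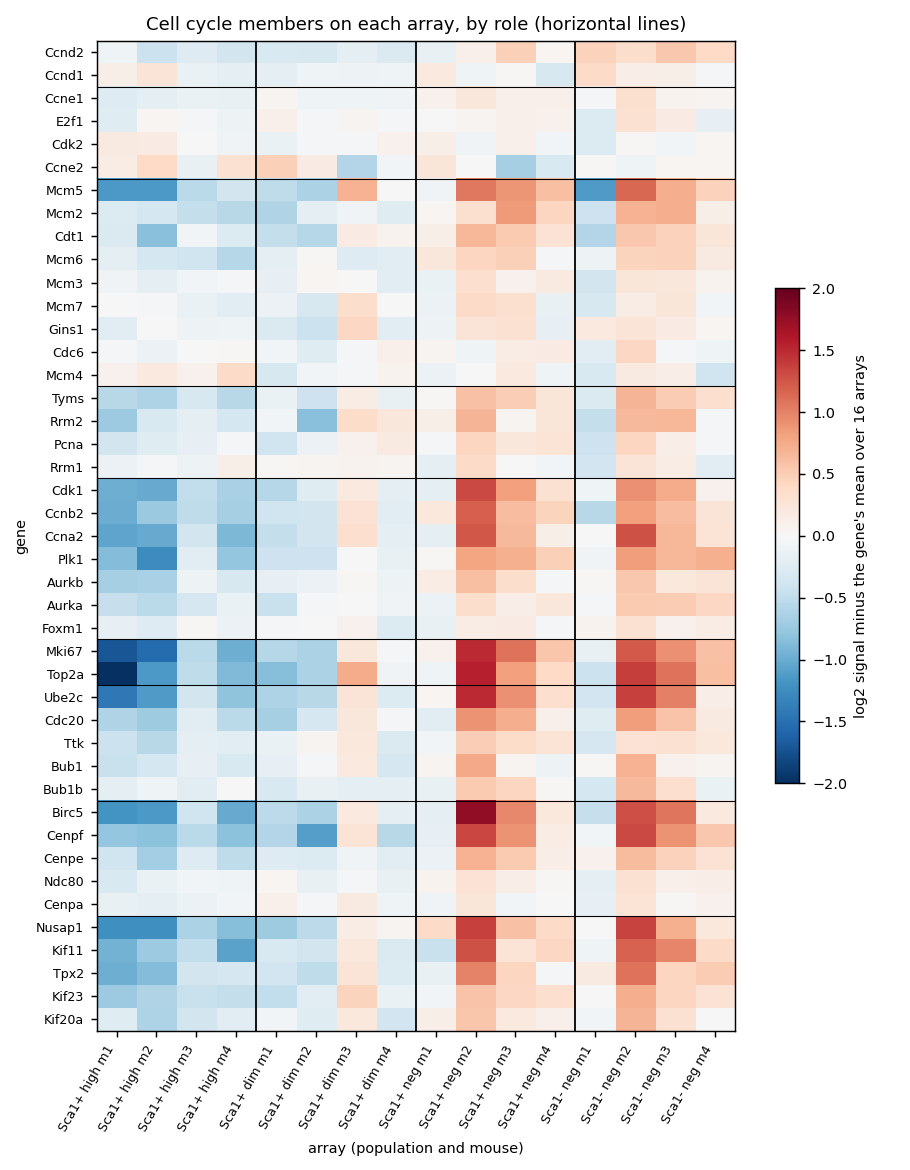
Log2 signal of each of the 43 genes on each array minus the gene's mean over the 16 arrays (colour), with genes grouped by role and arrays by population. The reporter-high columns are mostly blue through the mitosis rows, and the darkest red lies in the negative columns of mouse 2.

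The arrays of 1 population differed among themselves. Over the 43 genes the mean log2 signal ran from 9.68 to 9.95 in reporter-high, 9.93 to 10.34 in reporter-dim, 10.19 to 10.85 in Sca1+ negative and 10.03 to 10.85 in Sca1- negative arrays. Reporter-high arrays were the most alike (SD 0.13), and both negative groups the most spread (SD 0.29 and 0.36). The negative arrays labelled mouse 2 were highest for Mki67, Top2a, Ccna2, Cdk1, Birc5 and Ube2c, and those of mouse 1 lowest for the same genes. In Top2a this gave 3205 and 2839 for mouse 2 against 1025 and 805 for mouse 1. For Mki67 and Top2a the arrays low in Xist were the lowest of every population. Mki67 was at 702 and 789 in them against 1583 and 1175 in other reporter-high arrays, and at 1550 and 1479 against 2696 and 2240 in reporter-dim ones. With sex as a covariate 66 of 66 values for named genes kept direction and call, and whether these levels differ by sex was not tested.

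Beyond the 45 genes, the wider cell cycle was followed through lists of its other parts. Of 30 other mitotic genes 23 fell in reporter-high against Sca1+ negative cells and 1 rose, beside 13.9% of all genes that fell and 17% that rose. Their median was -0.74, and without mouse 2, 9 fell (7.89% of all genes), 0 rose and 29 of 30 lay below 0. Dlgap5, a spindle protein, differed by -1.66 ± 0.53, adjusted p = 0.0269, Cdca3, a cofactor of mitotic entry, by -1.42 ± 0.40, adjusted p = 0.0133, and Ect2, an exchange factor of cytokinesis, by -1.32 ± 0.27, adjusted p = 0.00225, with 3 of 4 reporter-high arrays at background. The gene that rose, Pttg1 (securin, which holds back anaphase), was picked out after its value was seen (0.36 ± 0.10, adjusted p = 0.0123). Of 23 other replication factors 3 fell and 1 rose, with a median of -0.17 (1 and 1 without mouse 2). The share of this list that fell was close to the 13.9% of all genes, and the share that rose was below the 17% of all genes. Geminin (Gmnn), which blocks relicensing, differed by -1.33 ± 0.23, adjusted p = 0.000712, with 2 reporter-high arrays at background, and Dbf4 by -1.15 ± 0.29, adjusted p = 0.00828, whereas the kinase Cdc7, which Dbf4 activates, rose (0.85 ± 0.13, adjusted p = 0.000408). The third to fall, named after its value was seen, was the thymidine kinase Tk1 (-0.75 ± 0.19, adjusted p = 0.00802).

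For brakes and regulators of the cycle the shares that changed, beside 30.9% of all genes, were 42.9% of the CDK inhibitors, 37.5% of the retinoblastoma and E2F list, 41.7% of other cyclins and kinases and 33.3% of p53 targets and antiproliferative genes. Of 7 CDK inhibitors 2 fell and 1 rose, with a median of 0.18 (1 and 1 without mouse 2). Cdkn2b (p15) fell from 2751 ± 469 in Sca1+ negative to 993 ± 284 in reporter-high cells (-1.50 ± 0.22, adjusted p = 0.000354). Cdkn1a (p21) fell (-0.67 ± 0.20, adjusted p = 0.0178), and Cdkn2d (p19) rose (0.34 ± 0.08, adjusted p = 0.00661). Of 16 genes of the retinoblastoma family, the DREAM complex and other E2F factors 5 fell and 1 rose (median -0.19), and 4 and 0 did without mouse 2. E2f8, a repressor of the E2F family, differed by -0.94 ± 0.19, adjusted p = 0.00214, Rb1 by -0.52 ± 0.11, adjusted p = 0.0026 and Rbl1 (p107) by -0.49 ± 0.12, adjusted p = 0.00548. Named after their values were seen, Lin9 and E2f5 fell by 0.48 and 0.37, the latter being at 0.01 when arrays were scaled to the hybridization controls, and Rbl2 (p130) rose by 0.38.

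Of 12 other cyclins, kinases and phosphatases 2 fell and 3 rose, with a median of 0.07 (2 and 1 without mouse 2). Cks2, a small partner of Cdk1, had the largest fall of any cell cycle gene listed, from 5062 ± 1369 to 1152 ± 457 (-2.19 ± 0.36, adjusted p = 0.000531). Ccnd3, the third D-type cyclin, rose (0.60 ± 0.13, adjusted p = 0.00271) where Ccnd2 fell, and Ccnh, of the CDK-activating kinase, rose by 0.45 (adjusted p = 0.0394). Cdc25c fell by 0.43 and Cdk6 rose by 0.32, both named after their values were seen. Among 12 p53 targets and antiproliferative genes 3 fell and 1 rose (median -0.15), and 2 and 0 did without mouse 2. Tob1, an antiproliferative factor, fell (-1.45 ± 0.26, adjusted p = 0.000909), as did Ccng2 (-0.88 ± 0.22, adjusted p = 0.00753) and, named after its value was seen, Btg1 (-0.46), while Sesn1, a p53 target, rose (0.86 ± 0.20, adjusted p = 0.00509).

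Markers of other cells moved with these genes. Of 17 colon epithelial markers all 17 fell in reporter-high against Sca1+ negative cells, with a median of -2.24, and 15 did without mouse 2. Their summed signal was 47314 to 183809 in reporter-high, 195567 to 338077 in reporter-dim, 294195 to 443997 in Sca1+ negative and 265109 to 468175 in Sca1- negative arrays, and 0 of the 17 were at background on all arrays. Cldn4 was at 1478 ± 1211 against 10973 ± 4966 and Agr2 at 2533 ± 1861 against 15437 ± 2132 in reporter-high and Sca1+ negative cells. Reporter-high cells had the lowest mean of the epithelial list as well as of the cell cycle genes, although the reporter-high array of mouse 3 lay above the reporter-dim array of mouse 1 in both, and the 2 negative populations had close means in both (14.20 and 14.14 for the epithelial list, 10.50 and 10.48 for the members, log2). With this mean as a covariate 0 of 43 members passed with limma in reporter-high against Sca1+ negative cells (1 lower and 0 higher at an unadjusted p under 0.05) and 22 lay below 0, with Mki67 at -0.19 and Top2a at 0.32. The same fit called 1 of all 17097 genes (0.00585%). Epithelial levels of the reporter-high and Sca1+ negative arrays did not overlap, so the covariate and the population cannot be told apart in it.

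**Figure D4:**
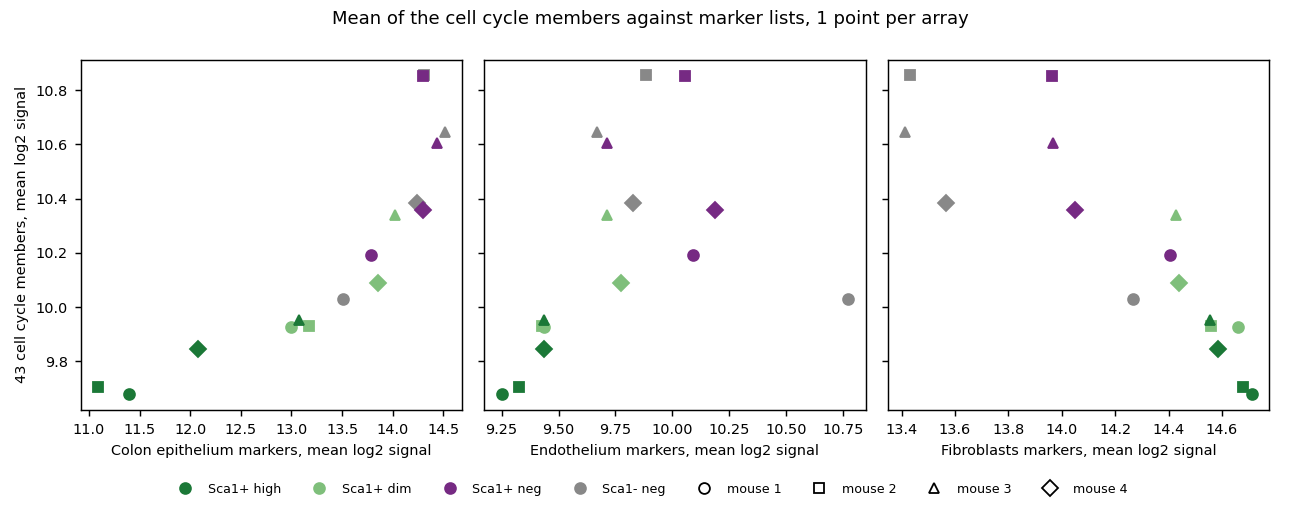
Mean log2 signal of the 43 cell cycle genes (vertical axis) against the mean log2 signal of colon epithelial, endothelial and fibroblast markers (horizontal axes), 1 point per array, coloured by population with symbols for the mouse. Arrays with a low epithelial mean, the reporter-high ones from 11.1 to 13.1, have cell cycle means of 9.68 to 9.95, and the negative arrays lie at the upper end of both.

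Other lists moved as well, beside 13.9% of all genes that fell and 17% that rose in the same comparison. Of 10 crypt stem and progenitor markers, the dividing compartment of the epithelium, 5 fell and 1 rose, with Prom1 at -1.89 ± 0.30, adjusted p = 0.000496. Myb also passed (adjusted p = 0.00118), but all 4 reporter-high and 2 of 4 Sca1+ negative arrays were at background, so no fold is given. Their summed signal ran from 9377 to 10955 in reporter-high and 14632 to 19440 in Sca1+ negative arrays. Of 18 endothelial markers 12 fell and 1 rose, with Pecam1 at -2.05 ± 0.32, adjusted p = 0.000424 and Cldn5 at -1.38 ± 0.46, adjusted p = 0.0328, and sums of 16294 to 17570 against 19358 to 27946. Of 17 leukocyte markers 4 fell, with Jchain at -2.62 ± 0.57, adjusted p = 0.00308 and Cd14 at -1.08 ± 0.27, adjusted p = 0.00652, and sums of 11241 to 14982 against 16091 to 27942. Cd3e, Cd3g and Itgam were at background on all arrays, and Cd3e is 1 of the 4 that passed as lower. Of 6 markers of glia and interstitial cells 2 fell, Ano1 and Kit (-1.38 and -1.22), the latter with 3 reporter-high arrays at background. Without mouse 2 the numbers that fell were 3 for crypt, 3 for endothelial, 3 for leukocyte and 2 for glial and interstitial markers.

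Stromal markers went the other way. Of 16 fibroblast markers 10 rose and 0 fell, with Thy1 at 1.17 ± 0.22, adjusted p = 0.00126 and Pdpn at 1.00 ± 0.26, adjusted p = 0.00812, and sums of 630691 to 653636 in reporter-high against 473734 to 594025 in Sca1+ negative arrays. Of 7 smooth muscle markers 6 rose, with Actg2 at 2.85 ± 0.44, adjusted p = 0.000401 and Myh11 at 1.64 ± 0.32, adjusted p = 0.00147. Without mouse 2, 2 fibroblast and 4 smooth muscle markers rose. The ratio of 3′ to 5′ Actb control signal, a measure of RNA quality, was 1.24 ± 0.03 (SD, n = 4), 1.15 ± 0.07, 1.11 ± 0.01 and 1.11 ± 0.05 in reporter-high, reporter-dim, Sca1+ negative and Sca1- negative cells. The part of these lists and of this ratio in the cell cycle differences was not tested.

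Scaling each array to its hybridization controls added 0.38 to the difference of every gene, and to the median of all genes, in reporter-high against Sca1+ negative cells. The order of the genes stays as it was, and which of them lie above 0 on that scale follows from the shift: 11 members passed as lower (5.18% of all genes) and 4 as higher, namely Ccne2, Ccnd1, Cdk2 and Mcm4 (60% of all genes). On that scale Mki67 was at -1.62, Top2a at -1.42, Nusap1 at -1.28 and Ube2c at -1.25.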

How the data were processed

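The 16 arrays held biotin-labelled RNA amplified from 2 ng of total RNA per sample and, per the submitters' processing notes, went through Expression Console 1.1 (Affymetrix). How probes were summarised and normalized is not given in the sources used here. Each deposited value is a score, standardized within its probe set across arrays, and holds no level, whereas a log2 scale had been planned for the tests. Whole-number signals were therefore recovered for all 45141 probe sets, with recomputed scores within 1e-09 of those deposited, and 1000 of 1000 probe sets of simulated data were recovered exactly. Array background still lies in the signals, so differences of dim genes are too small.

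Of the probe sets 28898 carried 1 gene, 551 several, 15588 none and 104 were controls. Each gene was read from its single-gene probe set with the highest mean. limma 3.58.1 in R 4.3.3 was fitted to log2 signals with a mean for each population, unblocked, for 6 comparisons with two-sided p adjusted by Benjamini-Hochberg over 17097 genes. P-values measure the spread between these samples. In data simulated for reporter-high against Sca1+ negative cells on 17097 genes, 64%, 90%, 100% and 100% of 50 genes changed by 0.5, 1, 2 and 3 (log2) were called, with 8 false calls. The simulated arrays were independent, without mouse or sex, and far fewer genes were changed than the 30.9% called in the data. These rates therefore need not hold for the real arrays. A gene is at background on an array when its signal is at or under the highest of 23 nonspecific controls, and a gene at background on all arrays of 1 group and on most of the other is given no fold.

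The labels pair the populations by mouse. Deviations from population means correlated at 0.519, -0.0795, 0.507 and 0.112 among the arrays of mice 1 to 4, and at -0.0893 between mice. Alternatives were a mouse block, left-out mice and arrays, other probe set rules, filters, scalings and priors, an epithelial covariate, and, chosen after seeing the data, mouse 2 split into 2 animals and sex as a covariate. Values in every array are given for the 2 genes per role with the smallest F test p and the 3 members with the largest, and for other lists up to 3 (markers 2) with the largest change that passed. The members and lists were chosen with earlier results of these data known. Promoter words were counted with Python 3.11.15 and pandas 2.3.3, and figures drawn with matplotlib 3.10.9.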

Additional observations from a re-analysis of the deposited data

Results flagged for a closer look

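In 7 of 172 sets of 4 arrays (43 genes in 4 populations) the highest or lowest array stood far from the other 3, where chance marks about 1 in 20 sets. Of these sets 5 concern the negative arrays labelled mouse 2. Nusap1 was 3023 in the Sca1+ negative array of mouse 2, against 1519 to 1759 in the other mice. Bub1 was 472 in the same array (others 260 to 290) and 451 in the Sca1- negative array of mouse 2 (others 284 to 296), close to the background of those arrays. Ccne1 was 1000 in the Sca1+ negative array of mouse 2 (others 915 to 925), and Ccne2 was lowest, at 1003, in its Sca1- negative array (others 1081 to 1095). Outside mouse 2, Kif11 was 996 in the reporter-dim array of mouse 3 (others 661 to 705), and Ccne1 was 891 in the reporter-dim array of mouse 1 (others 806 to 815).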

How the results depend on the processing

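The counts of members called in the 6 comparisons and the F test were 28 (reporter-high against Sca1+ negative), 0 (reporter-dim against Sca1+ negative), 0 (reporter-high against reporter-dim), 0 (the negative populations), 26 and 5 (reporter-high and reporter-dim against Sca1- negative) and 24. Leaving out 1 mouse gave 13 to 28, 0 to 8, 0 to 0, 0 to 0, 16 to 28, 1 to 11 and 6 to 27, and leaving out 1 array 23 to 30, 0 to 6, 0 to 0, 0 to 1, 22 to 31, 1 to 18 and 20 to 27. The F test count was 6 without mouse 2 and 10 without mouse 4, and the shares of all genes in these fits were not counted. With mouse as a replicate block the counts became 15 for reporter-dim against Sca1+ negative, 2 for reporter-high against reporter-dim and 17 for reporter-dim against Sca1- negative cells, and with mouse 2 split 11, 16 and 16. The block changed no call of a named gene in the other comparisons. Sex as a covariate gave 5, 5 and 9, for which the share of all genes is not given. Scaled to hybridization controls, which shifts all genes alike, the counts were 15, 0, 4 (all higher), 0, 14, 1 and 11, and with the epithelial covariate 0, 0, 0, 0, 0, 3 and 1 (limma; the zeros with 1, 8, 0, 1 and 4 lower and 0, 0, 2, 0 and 2 higher at an unadjusted p under 0.05). Reporter-dim against Sca1- negative cells gave 3 with only those arrays in the fit and 1 on the deposited scores. For hybridization scaling and the epithelial covariate, shares of all genes are given above only for reporter-high against Sca1+ negative cells. The cause of these changes in count was not tested. Signs turned under 2 settings. With hybridization scaling Ccne1 went to 0.068 and 0.15 in the 2 reporter-high comparisons. With the epithelial covariate, against Sca1+ and Sca1- negative cells, Top2a went to 0.32 and 0.28 and Ube2c to 0.055 and 0.18. Ttk went to 0.13 against Sca1- negative cells, and against Sca1+ negative cells Cdkn1a went to 0.34, Ccnh to -0.28, Dbf4 to 0.073, Dlgap5 to 0.86, Cdca3 to 0.38, Sesn1 to -0.19, Cldn4 to 0.17 and Pdpn to -0.16. Over all settings 1980 of 2175 values for named genes kept direction and call, 180 kept only the direction and 15 reversed. The total pools unlike settings, many of them close to the main fit. Those kept were 2 of 66 with the epithelial covariate (13 reversed) and 40 with hybridization scaling. Without mouse 2 they were 45, without mouse 4 they were 51, and with quantile normalization or the trended robust prior 66. Signals near array background (Bub1, Cdc6, Kif23, Gins1, Myb and, in reporter-high cells, Birc5, Ect2 and Kit) limit what can be seen of those genes.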
